A study of Homo sapiens with 9 samples.

Results

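TXNIP, its alpha-arrestin relatives ARRDC1, ARRDC2, ARRDC3 and ARRDC4, and the paired transcription factors MLXIP (MondoA) and MLX were followed in MHCC97H cells, an established human hepatocellular carcinoma (HCC) line with high metastatic potential. These 7 protein-coding genes, out of 60683 genes in the deposited table, were taken by name. TXNIP was chosen for its rise with both RPL6 hairpins, so its level against shCont is given as a description with no test, and the others were taken for their kinship to it. The groups were MHCC97H cells with hairpin shRPL6-1, with hairpin shRPL6-2, both directed at the ribosomal protein gene RPL6, or with the control hairpin shCont, 3 poly-A RNA libraries each. All groups carried a lentiviral hairpin, were selected with puromycin and were grown in DMEM with fetal bovine serum. The comparison asks which transcripts differ when RPL6 is knocked down. Whether the libraries of each group were grown as independent cultures is not stated, and the p-values then reflect the spread among these 9 libraries alone, which may be technical.

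TXNIP is the best known alpha-arrestin: it binds reduced thioredoxin and, in the cytoplasm, promotes internalization of glucose transporters. Its transcription is driven by MondoA, which sits at the outer mitochondrial membrane and moves to the nucleus with its partner MLX when glucose 6-phosphate accumulates. The pair binds carbohydrate response elements, made of E-box-like sites CACGNG with a fixed spacer, and ARRDC4 is the other alpha-arrestin known to be driven in this way. ARRDC1 recruits vesicle-budding proteins at the plasma membrane, and ARRDC2, ARRDC3 and ARRDC4 work as adaptors between membrane proteins and NEDD4-family ubiquitin ligases.

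Promoter windows of 300 bases, 250 before and 50 after the transcription start, were taken from RefSeq (GRCh38.p14), and all 7 genes matched. They were searched on both strands for CACGNG, for the palindrome CACGTG, which is a special case of it, and for 2 CACGNG in the same orientation separated by 5 bases. The bases before the start are shown for TXNIP because it holds the paired arrangement, and a stretch of them for ARRDC4 and MLX because these hold CACGTG. Capitals mark CACGNG on either strand.
TXNIP, chr1:145996580-145996829, minus strand: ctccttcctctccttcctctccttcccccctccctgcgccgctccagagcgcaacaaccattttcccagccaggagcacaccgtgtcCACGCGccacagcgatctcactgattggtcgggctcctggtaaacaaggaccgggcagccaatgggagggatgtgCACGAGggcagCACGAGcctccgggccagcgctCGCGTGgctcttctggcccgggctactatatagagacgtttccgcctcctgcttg
ARRDC4, chr15:97960453-97960572, plus strand: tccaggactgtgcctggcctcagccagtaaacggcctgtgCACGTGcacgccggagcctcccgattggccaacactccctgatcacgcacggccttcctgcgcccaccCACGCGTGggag
MLX, chr17:42566950-42567066, plus strand: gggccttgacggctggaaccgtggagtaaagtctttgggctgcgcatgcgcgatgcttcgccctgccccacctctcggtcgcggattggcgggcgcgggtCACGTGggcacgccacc

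In the TXNIP window the pair began 88 bases before the start, and such a pair was found in 20 of 35116 windows (0.057%). CACGTG lay 210 bases before the start of ARRDC4 and 50 bases before that of MLX, against 7.26% of all windows, and CACGNG of any kind was found in 30.5% of all windows. The ARRDC2 window held CACGNG 3 times, and the windows of ARRDC1 and MLXIP held none. ARRDC3 held none at the start given by the deposited locus, and a second window of this gene held 1 CACGNG, 193 bases before its own start. A match describes the letters in this window only.

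The hairpin guides are shown because their sites were also looked for in the longest protein-coding transcript of each of the 7 genes. Capitals mark the seed, bases 2 to 8.
shRPL6-1 guide: uUUGCGAAguuuaaccacc
shRPL6-2 guide: uAAUAAGCcacuagccagc

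In these GENCODE transcripts, none of the 7 genes held a site matching the seed of either guide or a full target. Other transcripts of the genes were not searched. By the same search, 4.66% of 12930 protein-coding genes held a seed site of shRPL6-1 and 17.8% one of shRPL6-2.

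Total counts per library ran from 13638468 to 16149480. RPL6 fell to 13.6, 12.9 and 15.8 CPM with shRPL6-1 and to 12.3, 11.7 and 21.4 CPM with shRPL6-2, against 500, 518 and 478 CPM in shCont, where CPM is the count relative to the TMM-scaled library size. Its log2 fold change was −5.14 (SE 0.25) and −5.04 (SE 0.25). Of the markers that define hepatocytes, ALB had no count in any library and AFP, with at most 11 counts, was the only 1 of 8 to reach 10 counts. The epithelial keratins KRT8 and KRT18 ran from 67.1 to 146 FPKM, while the other 2 epithelial markers were low, EPCAM at 0.248 to 0.73 FPKM and CDH1 at 0.0604 to 0.154 FPKM. The cells thus expressed keratins but little of the adhesion markers, and held almost no hepatocyte transcripts. Endothelial markers (3 of 3 reached 10 counts in some library) summed to 2.04 to 2.31 FPKM with shRPL6-1, 1.36 to 1.64 with shRPL6-2 and 2.5 to 3.72 in shCont. Fibroblast markers (2 of 4) summed to 4.94 to 5.34, 4.87 to 5.49 and 6.48 to 7.77 FPKM and leukocyte markers (2 of 4) to 0.30 to 0.535, 0.467 to 0.703 and 0.503 to 0.818 FPKM in the same order of groups, and their part in the results was not tested. The endothelial sum was mostly CDH5 (1.11 to 3.44 FPKM over all libraries), with VWF at most 0.279 and PECAM1 at most 0.0974 FPKM. The fibroblast sum was mostly COL1A1 (4.49 to 7.33 FPKM), with PDGFRB at most 0.409 and DCN and LUM at most 0.0294 FPKM. The libraries stood apart by base composition. Within the shCont group the correlation across genes between a library's deviation from its group mean and transcript GC content was −0.53 and −0.49 in libraries 1 and 2 and 0.63 in library 3 (Spearman's rho, across genes, which are not independent), and it was 0.52 in shRPL6-2 library 2 and −0.38 in shRPL6-2 library 3. Results that move with this are given with and without a correction for it.

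TXNIP (ENSG00000265972, chr1:145992435-145996579, GRCh38) had 286, 377 and 331 CPM with shRPL6-1, 416, 327 and 546 CPM with shRPL6-2, and 105, 109 and 84.7 CPM in shCont. Every hairpin library stood above every shCont library, and the lowest hairpin library, at 286 CPM, was above the highest shCont library, at 109 CPM. The means were 331 ± 45.3 CPM with shRPL6-1 and 430 ± 110 CPM with shRPL6-2, against 99.6 ± 13.1 CPM in shCont (SD, n = 3 each). That is 3.32-fold with shRPL6-1 (log2 1.73, SE 0.21) and 4.32-fold with shRPL6-2 (log2 2.11, SE 0.21). The SE takes no account of the choice of TXNIP for its rise, so no interval is given for these values. Ordered by log2 fold change over the 16146 genes tested, TXNIP stood at position 80 with shRPL6-1 and 37 with shRPL6-2, which describes the gene the choice was made for. In bulk RNA, more transcript per cell and more cells carrying it cannot be told apart.

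The difference between the hairpins was not used to choose TXNIP. With shRPL6-2 its level was 1.30-fold that with shRPL6-1 (log2 0.38, SE 0.20, 95% interval −0.07 to 0.82, adjusted p = 0.531), and the libraries of the 2 hairpins overlapped, since shRPL6-2 library 2 (327 CPM) lay below shRPL6-1 libraries 2 and 3 (377 and 331 CPM). In this comparison 0.384% of all genes were called at an adjusted p under 0.05. The spread was widest among the shRPL6-2 libraries, whose SD was 25.6% of the mean, against 13.7% with shRPL6-1 and 13.1% in shCont. Leaving out 1 library at a time gave log2 fold changes of 1.61 to 1.83 for shRPL6-1 and 1.91 to 2.26 for shRPL6-2 against shCont.

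**Figure D1:**
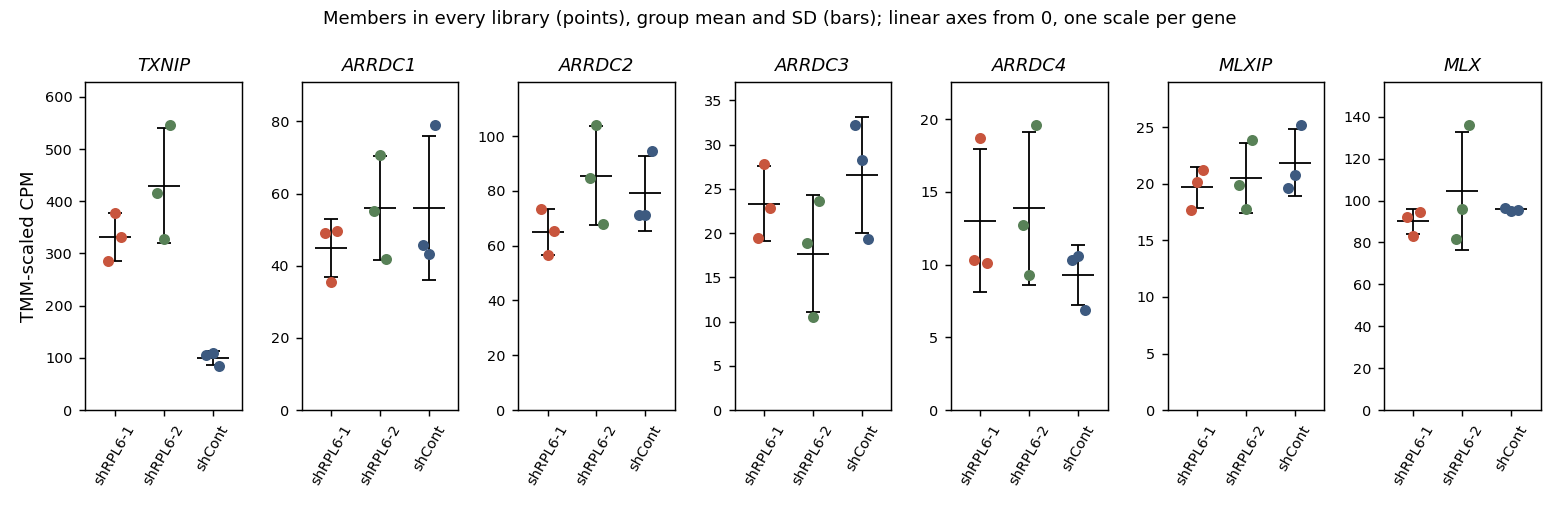
Level of each of the 7 genes in TMM-scaled CPM (y axis, from 0, a separate scale for each gene) in the 3 libraries of each group (points), with the group mean and SD (black bars). TXNIP has its 6 hairpin libraries between 286 and 546 CPM and its shCont libraries between 84.7 and 109 CPM, whereas in the other genes the groups overlap, except MLX with shRPL6-1, which lies just below shCont.

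By the deposited FPKM, TXNIP had the highest value of the 7 genes in each group. The gene lengths behind this FPKM were not compared with annotated ones, and the order between genes rests on them. TXNIP averaged 61.9 ± 8.46 FPKM with shRPL6-1, 76.7 ± 22.2 with shRPL6-2 and 19.9 ± 3.74 in shCont (SD, n = 3 each). MLX followed at 10.4, 11.4 and 11.7 FPKM in the same order of groups, then ARRDC2 at 7.38, 9.14 and 9.44 FPKM and ARRDC1 at 5.44, 6.39 and 7.10 FPKM. ARRDC3 averaged 3.40, 2.47 and 4.15 FPKM and ARRDC4 3.19, 3.25 and 2.44 FPKM. MLXIP had the lowest FPKM in every library, with means of 0.956, 0.948 and 1.12 FPKM. By CPM it was not the lowest, as it averaged 21.9 CPM in shCont, above ARRDC4 at 9.27 and below its partner MLX at 95.7. ARRDC3 and ARRDC4 overlapped in all 3 groups and changed places with shRPL6-2. ARRDC2 and ARRDC1 overlapped with shRPL6-2 and in shCont, and MLX and ARRDC2 with shRPL6-2. The FPKM range of TXNIP stood apart from that of MLX, its neighbour in this order, in each group. By CPM, which takes no account of length, TXNIP at 84.7 lay below MLX at 95.6 and ARRDC2 at 94.7 in shCont library 3. In shCont libraries 1 and 2 TXNIP was above both.

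Among the alpha-arrestins, none of the other 4 genes followed TXNIP past the test. ARRDC4, the relative that is likewise a MondoA target, had 10.3, 18.7 and 10.1 CPM with shRPL6-1, 12.7, 9.31 and 19.6 CPM with shRPL6-2, and 10.3, 10.6 and 6.88 CPM in shCont. Library 2 of shRPL6-1 and libraries 1 and 3 of shRPL6-2 stood above every shCont library, and the other hairpin libraries lay within the shCont range. Its log2 fold change was 0.49 (SE 0.33, 95% interval −0.24 to 1.22, adjusted p = 0.347) with shRPL6-1 and 0.58 (SE 0.33, −0.15 to 1.31, adjusted p = 0.209) with shRPL6-2.

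ARRDC3, an adaptor that brings membrane cargo such as integrin beta-4 to NEDD4-family ligases, had 19.4, 27.8 and 22.8 CPM with shRPL6-1, 18.9, 10.5 and 23.6 CPM with shRPL6-2, and 32.2, 28.2 and 19.3 CPM in shCont. The groups overlapped through shCont library 3, the lowest control. The log2 fold change was −0.19 (SE 0.29, adjusted p = 0.698) with shRPL6-1 and −0.59 (SE 0.29, 95% interval −1.23 to 0.06, adjusted p = 0.154) with shRPL6-2.

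ARRDC1, which sends membrane into budding vesicles, had 49.2, 35.6 and 49.7 CPM with shRPL6-1, 55.3, 70.6 and 41.8 CPM with shRPL6-2, and 45.7, 43.3 and 79.0 CPM in shCont. ARRDC2 had 73.4, 56.7 and 65.2 CPM with shRPL6-1, 84.7, 104 and 68.0 CPM with shRPL6-2, and 71.3, 71.2 and 94.7 CPM in shCont. In both genes shCont library 3 and shRPL6-2 library 2 stood high and the groups overlapped. With shRPL6-1 the log2 fold change was −0.32 (SE 0.27, adjusted p = 0.451) for ARRDC1 and −0.28 (SE 0.20, adjusted p = 0.364) for ARRDC2. With shRPL6-2 it was 0.00 (SE 0.27, 95% interval −0.60 to 0.59, adjusted p = 0.992) for ARRDC1 and 0.11 (SE 0.20, −0.32 to 0.54, adjusted p = 0.695) for ARRDC2.

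The 2 transcription factors showed no change past the test. MLXIP had 17.7, 20.2 and 21.2 CPM with shRPL6-1, 19.9, 17.8 and 23.9 CPM with shRPL6-2, and 19.6, 20.8 and 25.2 CPM in shCont, with log2 fold changes of −0.15 (95% interval −0.55 to 0.25, adjusted p = 0.613) and −0.09 (−0.49 to 0.31, adjusted p = 0.734). MLX had 92.3, 83.1 and 94.7 CPM with shRPL6-1, 81.6, 95.8 and 136 CPM with shRPL6-2, and 96.6, 95 and 95.6 CPM in shCont. The shCont values of MLX were close to each other, so that all shRPL6-1 libraries lay below them although the log2 fold change was only −0.09 (−0.50 to 0.32, adjusted p = 0.782). With shRPL6-2, whose library 3 was high, it was 0.13 (−0.28 to 0.54, adjusted p = 0.636). The intervals of MLXIP and MLX stay within 0.55 on the log2 scale in either direction in this fit, which has no GC correction. These are transcript levels, and the entry of MondoA into the nucleus was not measured.

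Counted together, 0 of the 6 genes other than TXNIP were called against shCont with either hairpin, or between the hairpins, and 0 had an unadjusted p under 0.05 or were called by DESeq2. The call was an adjusted p under 0.05 by edgeR, which 8.51% of all 16146 genes passed with shRPL6-1, 27.9% with shRPL6-2 and 7.09% in the same direction with both. Groups without overlap were found for TXNIP and MLX with shRPL6-1 and for TXNIP with shRPL6-2, against 31.6% and 38.6% of all genes, and TXNIP was chosen on these values. The median log2 fold change of the 7 genes was −0.15 with shRPL6-1 and 0.11 with shRPL6-2, against −0.01 and −0.03 over all genes tested. Between the hairpins, the 6 genes had log2 differences of −0.40 (ARRDC3) to 0.39 (ARRDC2), with adjusted p from 0.5 to 0.932.

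The 7 genes differed in how they varied among libraries of the same group, and the deviations moved with transcript GC content. ARRDC3 (37.6% GC), ARRDC4 (43.4%) and TXNIP (43.9%) were low in shCont library 3, by 0.43, 0.40 and 0.22 on the log2 scale relative to the group mean, and low in shRPL6-2 library 2. ARRDC2 (62.2%) and ARRDC1 (64.6%) were high in the same libraries, by 0.27 and 0.55 in shCont library 3 and by 0.30 and 0.37 in shRPL6-2 library 2. In shRPL6-1 library 2 and shRPL6-2 library 3 the genes moved the other way. MLX (51.8%) and MLXIP (57.9%), between these GC contents, did not follow either side throughout.

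**Figure D2:**
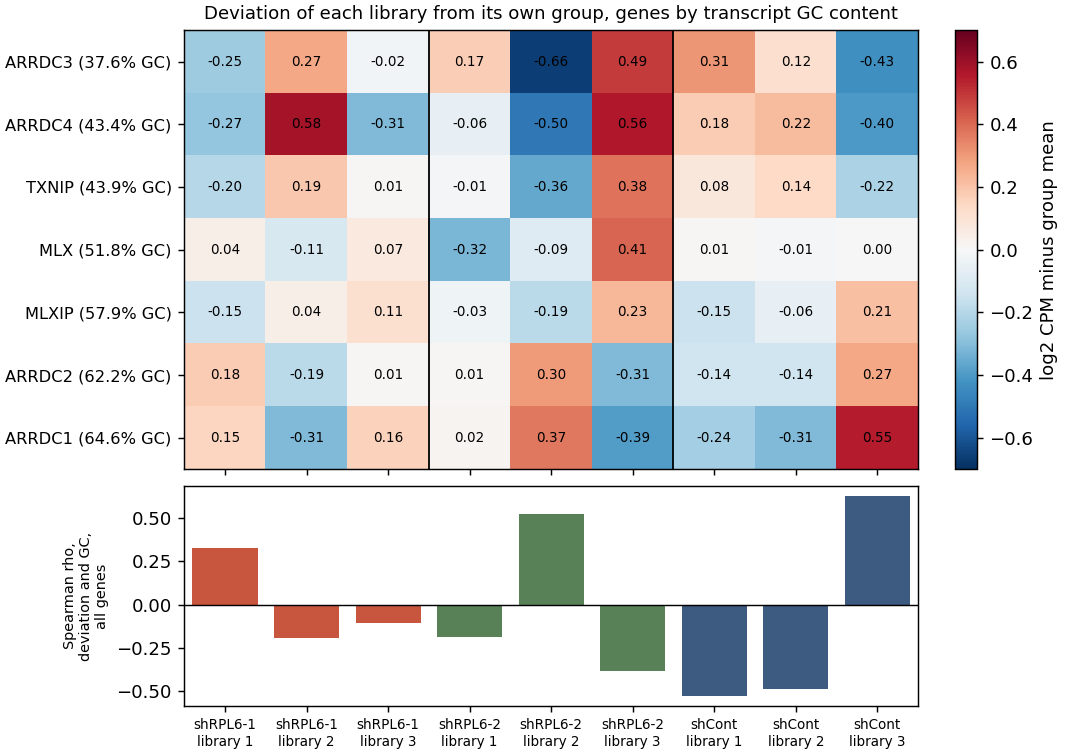
Upper panel, log2 CPM of each library minus the mean of its group (colour and printed value) for the 7 genes, ordered by transcript GC content from ARRDC3 at 37.6% to ARRDC1 at 64.6%. Lower panel, Spearman's rho across all genes tested between the deviation of that library from its group and transcript GC content. In shCont library 3, where rho is 0.63, ARRDC3 is lowered by 0.43 and ARRDC1 raised by 0.55.

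When a smooth trend on GC content was taken out of each library, which also takes out any difference between groups that follows GC content, the TXNIP values of shCont came closer together, at 88.6, 92.3 and 89.2 CPM. The corrected TXNIP values were 299, 366 and 325 CPM with shRPL6-1 and 451, 402 and 546 CPM with shRPL6-2, and the log2 fold changes were 1.88 (SE 0.13) and 2.37 (SE 0.14). The SE had been 0.21 in both comparisons before correction.

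With this correction ARRDC1 and ARRDC2 were called lower with both hairpins and ARRDC4 higher with shRPL6-2, that is 2 of the 6 genes with shRPL6-1, 3 with shRPL6-2 and 2 in the same direction with both. Of all genes, 16.1%, 27.0% and 12.2% were called in these comparisons after correction. ARRDC1 had corrected levels of 45.4, 37.5 and 50.5 CPM with shRPL6-1, 47.7, 49.8 and 41.5 CPM with shRPL6-2, and 62.6, 58.6 and 72.1 CPM in shCont, without overlap. Its log2 fold change was −0.53 (SE 0.14, adjusted p = 0.031) with shRPL6-1 and −0.48 (SE 0.14, adjusted p = 0.0325) with shRPL6-2.

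ARRDC2 had corrected levels of 68.0, 59.4 and 66.1 CPM with shRPL6-1, 74.9, 76.0 and 67.2 CPM with shRPL6-2, and 94.3, 93.2 and 87.0 CPM in shCont. All 6 hairpin libraries were thus below the controls, with log2 fold changes of −0.50 (SE 0.10, adjusted p = 0.0124) and −0.33 (SE 0.10, adjusted p = 0.0386). The sign with shRPL6-2 was the opposite of that without correction, 0.11. ARRDC4 had corrected levels of 10.9, 18.3 and 9.94 CPM with shRPL6-1, 13.8, 11.7 and 19.7 CPM with shRPL6-2, and 8.55, 8.84 and 7.31 CPM in shCont. Here too every hairpin library was above every shCont library, with log2 fold changes of 0.66 (SE 0.27, adjusted p = 0.118) and 0.87 (SE 0.27, adjusted p = 0.0371). Before correction 31.6% of all genes with shRPL6-1 and 38.6% with shRPL6-2 had no overlap with shCont. That share was not counted after correction, so the lack of overlap does not set ARRDC1, ARRDC2 and ARRDC4 apart from all genes.

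These calls rested on few libraries. When each of the 9 libraries was left out in turn with the correction in place, ARRDC2 with shRPL6-1 was called in 7 of 9 fits, all but those without shCont library 1 or 2 (adjusted p up to 0.0548). ARRDC4 with shRPL6-2 was called in 4 (adjusted p up to 0.11), ARRDC1 in 3 with shRPL6-1 and 2 with shRPL6-2 (up to 0.091 and 0.0878), and ARRDC2 with shRPL6-2 in 2 (up to 0.139). The fold changes kept their direction, at −0.63 to −0.44 and −0.54 to −0.38 for ARRDC1, −0.54 to −0.46 and −0.38 to −0.27 for ARRDC2, and 0.63 to 1.01 for ARRDC4 with shRPL6-2. ARRDC3, whose uncorrected estimates were −0.19 and −0.59, came to 0.16 (adjusted p = 0.599) and −0.07 (adjusted p = 0.808). MLXIP came to −0.32 (SE 0.18, adjusted p = 0.261) and −0.40 (SE 0.19, adjusted p = 0.136). MLX came to −0.19 and −0.02 (adjusted p = 0.465 and 0.93).

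**Figure D3:**
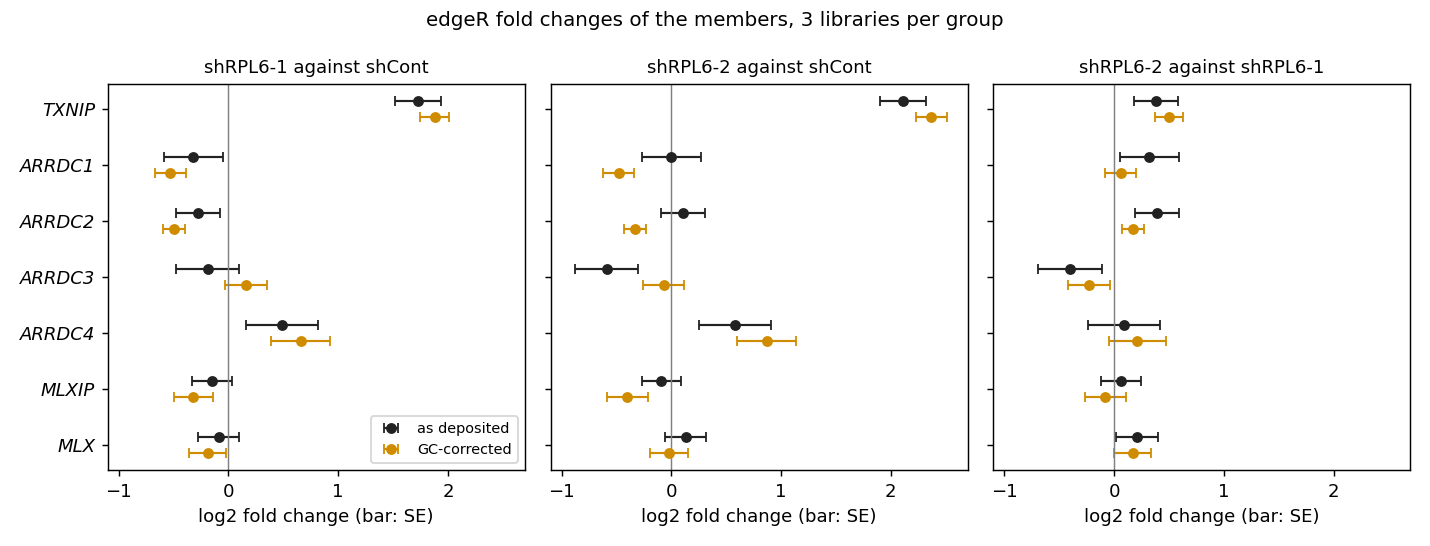
Log2 fold change of each gene (points) with its SE (bars) in the 3 comparisons, from the counts as deposited (black) and after the GC correction (orange), 3 libraries per group. TXNIP lies at 1.73 and 2.11 against shCont, and at 1.88 and 2.37 after correction, while ARRDC1, ARRDC2, ARRDC4 and MLXIP leave 0 by more than their SE with both hairpins after correction.

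Some of the 7 loci share sequence with other genes, and whether counting used the strand is not given in the sources used here. The antisense lncRNA ARRDC1-AS1 had 481 to 1048 counts per library. It lies on the minus strand and ends at chr9:137615332, and ARRDC1, on the plus strand, ends at chr9:137615360, so only the last bases of each are shared. The log2 fold change of ARRDC1-AS1 was 0.69 (adjusted p = 0.058) with shRPL6-1 and 1.00 (adjusted p = 0.0083) with shRPL6-2. It was thus called higher with shRPL6-2, where ARRDC1 was at 0.00 without the GC correction and at −0.48 with it. ARRDC3-AS1 had 14 to 32 counts, and PSMC3IP, which overlaps the end of MLX on the other strand, was at 0.09 with both hairpins (adjusted p = 0.782 and 0.767). The values of ARRDC1, ARRDC3 and MLX are uncertain as far as reads fell on shared bases, which was not measured. No gene of the table overlapped TXNIP. Its nearest protein-coding neighbour on the lower-coordinate side, POLR3GL, a subunit of RNA polymerase III 13587 bases away, rose with shRPL6-1 (log2 0.90, adjusted p = 0.0258) and with shRPL6-2 (1.00, adjusted p = 0.00779). On the other side, HJV had at most 1 count. The values of ARRDC1-AS1, PSMC3IP and POLR3GL are from the fit without GC correction, and whether they hold in the alternative fits was not examined.

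The wider arrestin fold was represented by 5 of 8 listed genes with enough counts. ARRB2, a beta-arrestin that desensitizes G-protein-coupled receptors, had 56.1, 71.8 and 62.7 CPM with shRPL6-1, 71.1, 67.3 and 77.4 CPM with shRPL6-2, and 28.7, 33.4 and 42.3 CPM in shCont. It rose by log2 0.87 (SE 0.18, adjusted p = 0.0216) and 1.05 (SE 0.18, adjusted p = 0.0052), and the other 4 were not called. Its paralog ARRB1 was at −0.38 and −0.28 (adjusted p = 0.113 and 0.155). The median of the list was −0.14 with shRPL6-1 and −0.03 with shRPL6-2, so ARRB2 stood apart from the rest of it.

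Of the partners of MLX and MAX, 9 of 10 were tested, 0 were called with shRPL6-1 by edgeR or DESeq2 (2 at an unadjusted p under 0.05) and 2 rose with shRPL6-2, where 27.9% of all genes were called. These were MXD4, with 111, 162 and 110 CPM with shRPL6-2 against 55.5, 52.6 and 82.8 CPM in shCont (log2 1.00, SE 0.22, adjusted p = 0.0107), and MXD3 (log2 0.74, SE 0.21, adjusted p = 0.0248). Both are repressors that compete with MYC for MAX. The ChREBP gene MLXIPL, the liver counterpart of MondoA, averaged 1.05 ± 0.329 CPM with shRPL6-1, 2.35 ± 0.862 CPM with shRPL6-2 and 2.18 ± 0.698 CPM in shCont (SD, n = 3 each), and was not called. The list median was −0.23 and 0.10.

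Of 14 genes known to respond to carbohydrate through MondoA or ChREBP, 10 were tested. With shRPL6-1, 0 were called by edgeR or DESeq2 (2 at an unadjusted p under 0.05), and with shRPL6-2 2 fell, HK2, which phosphorylates glucose (29.9, 24.4 and 32.8 CPM with shRPL6-2 against 40.5, 42.5 and 46.4 CPM in shCont, log2 −0.57, SE 0.17, adjusted p = 0.0309), and ACACB, the acetyl-CoA carboxylase of the mitochondrial membrane (log2 −0.62, SE 0.19, adjusted p = 0.034). The list median was −0.12 with shRPL6-1 and −0.22 with shRPL6-2. KLF10, a direct MondoA and ChREBP target, was at 0.32 and 0.04 (adjusted p = 0.259 and 0.891). No tested gene of this list was called higher with either hairpin. Of all 16146 genes, 8.51% were called with shRPL6-1 (717 genes higher) and 27.9% with shRPL6-2 (2145 genes higher). With 10 genes tested, these counts do not set the list apart from all genes.

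The thioredoxin system, to which TXNIP binds, was tested in all 12 genes. With shRPL6-1, 1 rose and 1 fell, and with shRPL6-2, 1 rose and 3 fell, which is 2 and 4 of 12, beside 8.51% and 27.9% of all genes. PRDX4, the peroxiredoxin of the endoplasmic reticulum, had 185, 139 and 174 CPM with shRPL6-1, 221, 279 and 167 CPM with shRPL6-2, and 60.2, 55.2 and 90.6 CPM in shCont (log2 1.27, adjusted p = 0.0166, and 1.69, adjusted p = 0.00283). TXNRD1, the cytosolic thioredoxin reductase, fell by 0.92 (SE 0.24, adjusted p = 0.0442) and by 0.78 (SE 0.24, adjusted p = 0.0363). Its levels were 497, 492 and 663 CPM with shRPL6-1, 572, 453 and 795 CPM with shRPL6-2, and 1130, 1240 and 767 CPM in shCont, where library 3 was within the range of the shRPL6-2 libraries.

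The mitochondrial PRDX3 fell with shRPL6-2 (log2 −1.03, SE 0.25, adjusted p = 0.0141). PRDX6, a peroxiredoxin with phospholipase activity, had 639, 616 and 602 CPM with shRPL6-1, 307, 351 and 344 CPM with shRPL6-2, and 556, 561 and 672 CPM in shCont, and every shRPL6-2 library lay below those of the other groups (log2 −0.84, SE 0.14, adjusted p = 0.00499). Thioredoxin itself, TXN, averaged 709 ± 19.4, 762 ± 65.3 and 768 ± 17.6 CPM in shRPL6-1, shRPL6-2 and shCont (SD, n = 3 each), with log2 fold changes of −0.12 and −0.01 (adjusted p = 0.586 and 0.953). The list median was −0.06 and 0.04.

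Of 13 hexose transporters 6 were tested and 0 were called with either hairpin by edgeR or DESeq2, with 0 at an unadjusted p under 0.05 (median 0.06 and 0.01). SLC2A1, the GLUT1 gene whose protein TXNIP internalizes, averaged 307 ± 34.8, 420 ± 59.0 and 413 ± 153 CPM in shRPL6-1, shRPL6-2 and shCont (SD, n = 3 each), with log2 fold changes of −0.43 (95% interval −0.96 to 0.10) and 0.02 (−0.50 to 0.55). Of the 9 NEDD4-family ligases, which bind the PPxY motifs of alpha-arrestins, HECW1 was the 1 called gene. It had 16.0, 17.9 and 19.5 CPM with shRPL6-1, 20.9, 20.5 and 17.8 CPM with shRPL6-2, and 7.99, 8.99 and 13.1 CPM in shCont, and rose by log2 0.83 (adjusted p = 0.0413) and 0.98 (adjusted p = 0.0108). The list median was −0.20 and −0.51. With shRPL6-2, 6 of the 9 had an unadjusted p under 0.05 and DESeq2 called 5. Over all genes DESeq2 called 5311 in this comparison. The share of all genes at an unadjusted p under 0.05 was not counted, for this list or the others, so these counts do not set the list apart.

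Among 7 tested genes of AMPK, the energy-sensing kinase that phosphorylates TXNIP protein for degradation, and its upstream kinase LKB1, 0 were called with shRPL6-1 by edgeR or DESeq2, with 2 at an unadjusted p under 0.05 (median −0.21). With shRPL6-2 (median −0.45) the LKB1 gene STK11 rose (log2 1.00, SE 0.28, adjusted p = 0.0265) and the catalytic subunit gene PRKAA1 fell (log2 −0.85, SE 0.23, adjusted p = 0.0222). The fall of PRKAA1 was no longer called with the GC correction. All 6 listed cargo and vesicle partners of alpha-arrestins were tested, of which 1 fell with shRPL6-1 and 2 with shRPL6-2 (median −0.11 and −0.40), beside 8.51% and 27.9% of all genes. VPS4B, an ATPase that completes vesicle scission, fell with both hairpins (log2 −1.02, adjusted p = 0.0232, and −0.91, adjusted p = 0.0142). ITGB4, the integrin beta-4 gene, fell with shRPL6-2 (log2 −0.78, SE 0.14, adjusted p = 0.00604). ITGB4 had 92.9, 103 and 90.3 CPM with shRPL6-2 against 150, 161 and 179 CPM in shCont.

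Together these lists held 64 tested genes, of which 5 were called with shRPL6-1 (7.81%, beside 8.51% of all genes) and 14 with shRPL6-2 (21.9%, beside 27.9%), so the share called was not above that of all genes in either comparison. Of these 19 calls, 5 held in all 15 alternative fits: ARRB2, PRDX4, PRDX6, HECW1 and ITGB4, each with shRPL6-2. The other 14 were lost in 1 to 9 of them, with adjusted p up to 0.178. Without shCont library 2 all 14 were lost, and without shCont library 1 all but that of MXD4, which is 13.

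**Figure D4:**
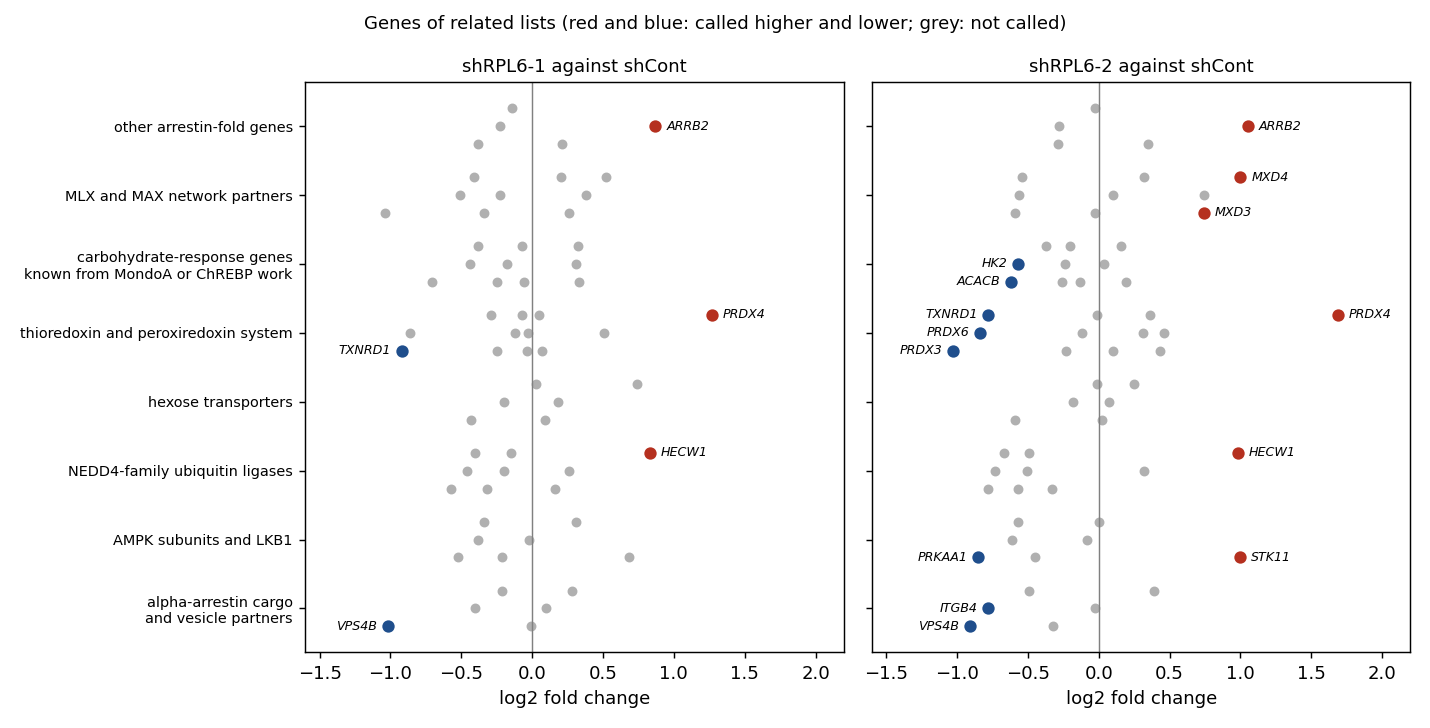
Log2 fold change of each tested gene (points) of the 8 related lists, for shRPL6-1 (left) and shRPL6-2 (right) against shCont, with genes called higher in red, called lower in blue and not called in grey. PRDX4 lies farthest to the right at 1.27 and 1.69, and PRDX3 farthest to the left among the called genes with shRPL6-2 at −1.03.

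The 5 protein-coding genes whose log2 CPM followed TXNIP most closely over the 9 libraries, out of 11738 that averaged 1 log2 CPM or more, were SIAH2, ISG20L2, FAHD1, POLR3D and PRXL2C, with Pearson's r of 0.988, 0.981, 0.981, 0.98 and 0.978. These coefficients carry the difference between hairpin and shCont libraries, and after the group means were taken out r was 0.825, 0.919, 0.797, 0.737 and 0.85. What is left for TXNIP moved with GC content among the libraries, as described above. The correlations were not repeated with the GC correction, so the part of base composition in them was not tested. ISG20L2, a nucleolar exoribonuclease, had 98.2, 121 and 95.1 CPM with shRPL6-1, 108, 96.6 and 130 CPM with shRPL6-2, and 64.5, 65.9 and 56.0 CPM in shCont. Like TXNIP it was highest in library 2 of shRPL6-1 and library 3 of shRPL6-2 and lowest in library 3 of shCont. SIAH2, a ubiquitin ligase, had 76.6, 82.4 and 78.0 CPM with shRPL6-1, 80.3, 79.8 and 91.6 CPM with shRPL6-2, and 51.7, 49.2 and 42.1 CPM in shCont.

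The fold changes of these 5 genes were smaller than those of TXNIP, at log2 0.48 to 0.79 with shRPL6-1 and 0.51 to 0.85 with shRPL6-2. FAHD1 is a mitochondrial oxaloacetate decarboxylase, POLR3D a subunit of RNA polymerase III and PRXL2C a peroxiredoxin-like protein. None of the other 6 genes studied here was among the 5. All 9 libraries were shared by these correlations, which are a description.

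**Figure D5:**
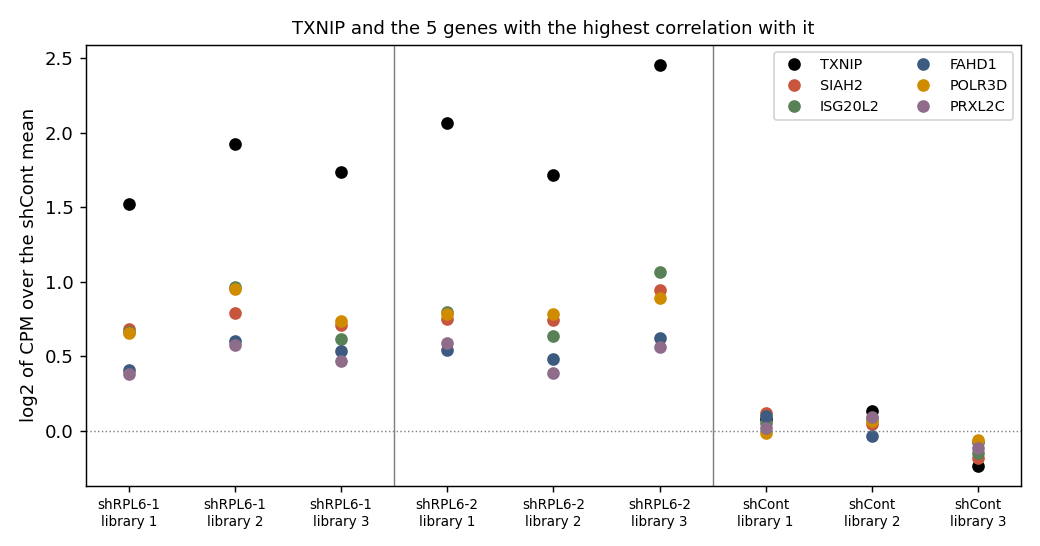
Level of TXNIP (black) and of the 5 genes with the highest correlation with it (colours) in each library, as log2 of CPM over the shCont mean. TXNIP lies between 1.5 and 2.5 in the hairpin libraries, whereas the 5 genes, whose fitted log2 fold changes are 0.48 to 0.85, share the order of libraries within groups in part.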

How the data were processed

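Counts per gene (whole numbers) and FPKM in 1 table were deposited by the authors, for poly-A selected, stranded, paired-end libraries of MHCC97H cells. The submitters' processing notes name CASAVA 1.8, HISAT2, StringTie, edgeR and GRCh38. Neither the annotation nor the counting program is stated in these sources (not given in the sources used here). In the deposited values, FPKM was count over library total times a factor per gene that was the same in all libraries (12649 genes compared, 0 deviating by a relative 0.0001 or more). The gene length which that factor implies was not compared with an annotated length. Columns headed NC, Si61 and Si62 were read as shCont, shRPL6-1 and shRPL6-2.

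The test was edgeR's (version 4.0.16, R 4.3.3): filterByExpr (16146 genes left), TMM, a quasi-likelihood fit to all 9 libraries with 1 term per group, two-sided tests, Benjamini-Hochberg adjustment over all genes, threshold 0.05. SE is the absolute log2 fold change over the square root of F. The common biological coefficient of variation was 0.239, which at 3 libraries per group sets the precision. Log2 CPM used a prior count of 2. The script was tested on simulated data. Transcript GC content came from GENCODE v29 (a value for 99.1% of genes), with a lowess trend (span 0.3) per library as offset. DESeq2 1.42.0, other scaling, no filter, a replicate block and left-out libraries were alternatives.

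The 7 genes and the lists were chosen with earlier results of these data known. Up to 4 called genes per list were named by smallest adjusted p, with the 5 genes most correlated with TXNIP and its neighbours, and MLXIPL, KLF10, ARRB1, TXN and SLC2A1 after their values were seen. A gene that this rule names is not reported here.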

Additional observations from a re-analysis of the deposited data

Results flagged for a closer look

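PRDX6, the peroxiredoxin with phospholipase activity, differed between the hairpins: its log2 difference, shRPL6-2 against shRPL6-1, was −0.89 (SE 0.14, edgeR adjusted p = 0.0269). It was lower in 3 of 3 shRPL6-2 libraries (307, 351 and 344 CPM) than in every shRPL6-1 library (639, 616 and 602 CPM). The difference was −0.92 to −0.77 over 15 alternatives, with adjusted p from 6.89e-07 to 0.193. The call was lost in 10 of them, 8 of which left out 1 library. None of TXNIP, the 4 ARRDC genes, MLXIP and MLX was called between the hairpins by the same test.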

How the results depend on the processing

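Over 15 alternatives the log2 fold change of TXNIP ran from 1.61 to 1.88 with shRPL6-1 and from 1.91 to 2.37 with shRPL6-2. Genes called with shRPL6-1, between the hairpins and in the same direction with both (1374, 62 and 1145 as reported) numbered 2563, 323 and 2111 by DESeq2, 623, 39 and 509 without a filter on low counts, and 2595, 194 and 1972 with the GC correction, which also called 2, 3 and 2 of the other 6 genes (shRPL6-1, shRPL6-2, both). With the replicate number as a block, the calls were 32, 5 and 23, and 2099 with shRPL6-2 (4499 as reported). With the block and the GC correction they were 2878 with shRPL6-2 and 40 between the hairpins, and 1 of the other 6 genes was called with shRPL6-1 (ARRDC2, adjusted p = 0.0432). Same-number correlations of deviations ran from −0.466 to 0.252, and 0 of 9 libraries correlated best with its own number. These deviations also moved with GC content, and the check was not repeated with the GC correction. It thus cannot decide whether the numbers pair the libraries. Leaving out 1 library gave 99 to 4783 calls with shRPL6-1, 1378 to 7201 with shRPL6-2, 8 to 194 between the hairpins and 76 to 4260 with both, highest in each case without shCont library 3.

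Signs turned for estimates near 0. With the GC correction, and with the block as well, ARRDC3 with shRPL6-1 was 0.16 and 0.17, ARRDC2 with shRPL6-2 −0.33 and −0.33, MLX with shRPL6-2 −0.02 and −0.05, and MLXIP between the hairpins −0.08 and −0.09. ARRDC1 with shRPL6-2 was 0.01 with DESeq2 size factors, by DESeq2 and without a filter, and 0.04 with the block. With a library left out, ARRDC1 ran from −0.49 to 0.02 with shRPL6-1 and from −0.21 to 0.33 with shRPL6-2, ARRDC2 with shRPL6-2 from −0.06 to 0.27, MLXIP from −0.21 to 0.03 and MLX from −0.11 to 0.28 with shRPL6-2, and between the hairpins ARRDC4 ran from −0.24 to 0.45, MLXIP from −0.06 to 0.16 and MLX from −0.02 to 0.37. The GC correction with a library left out, added after the data were seen, gave ARRDC2 with shRPL6-2 −0.33, −0.34 and −0.32 without shRPL6-1 libraries 1, 2 and 3, −0.35, −0.38 and −0.27 without those of shRPL6-2 and −0.31, −0.32 and −0.36 without those of shCont. The cause was not tested. The smallest count behind a value of the 7 genes was 102, and intervals of the estimates bound what 3 libraries per group could show.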
